A study of Rattus norvegicus with 8 samples.

Results

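The genes described here encode the proteins that carry sodium and potassium across the cells of the nephron: the sodium-proton exchanger NHE3 (Slc9a3), the cotransporters NKCC2 (Slc12a1) and NCC (Slc12a3), the 3 subunits of the epithelial sodium channel ENaC (Scnn1a, Scnn1b and Scnn1g), the beta-1 subunit of the sodium pump (Atp1b1), the kinase Wnk4 and the potassium channel ROMK (Kcnj1). They were taken by name, though with earlier results of these data known. A probe set was kept when the platform annotation gave it 1 gene symbol and that symbol was one of the 9. This gave 11 of the 31042 probe sets tested, for 8 of the 9 genes (of 14217 genes named on the array). Wnk4 shares its 2 probe sets with the genes Vps25 and Cntd1, so it has no value of its own here.

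Levels were measured on Affymetrix arrays in whole left kidneys of female Sprague-Dawley rats aged 29 weeks, with RNA from 1 rat on each array. Over 26 weeks, the daily Si intake per kg of body weight had been 0.17 mg in 4 Si deplete rats and 4.1 mg in 4 Si replete rats. Both groups ate the same low-Si feed and differed in their drinking water, to which orthosilicic acid was added for the Si replete group. The labels name no other treatment. How the 8 rats were picked from the larger groups is not given in the sources used here. A level is a log2 value made by the authors with gcRMA, so a difference of 1 is a doubling. Because the whole kidney was ground, fewer cells of a nephron segment and less RNA per cell cannot be told apart.

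Sodium filtered at the glomerulus is taken back segment by segment. The proximal tubule recovers the largest part, through NHE3 on its brush border. The thick ascending limb takes up sodium with potassium and chloride through NKCC2, and ROMK returns the potassium to the lumen so that the uptake can go on. NCC recovers sodium chloride in the distal convoluted tubule under the control of WNK kinases, and ENaC, under aldosterone, sets the last step in the connecting tubule and collecting duct, where sodium entry drives potassium secretion through ROMK. In every segment the basolateral sodium pump supplies the gradient.

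The diets did not separate any of these genes. None of the 11 probe sets passed an adjusted p of 0.1 in limma with Benjamini-Hochberg adjustment, a threshold that 47 of all 31042 probe sets (0.151%) passed. None had an unadjusted p under 0.05 in limma (14.9% of all probe sets did). Leaving out Si deplete replicate 4 brought 2 under 0.05, both of Scnn1a, beside 5332 of all 31042 probe sets. Leaving out replicate 3 of that diet brought 1, of Slc9a3, beside 5251 of all. In no probe set of the 11 were all 4 arrays of one diet above all 4 of the other (9.37% of all were). The differences, Si deplete minus Si replete, ran from -0.30 to 0.08 with a median of -0.02, against -0.0101 over all probe sets. For all 11 the 95% interval of the difference lay within a change of 2-fold in either direction, and for 8 within 1.5-fold; over all probe sets these shares were 93.9% and 78.6%. The median size of the difference was 0.048, against 0.116 over all probe sets.

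The promoter windows of Scnn1b, Scnn1g and Slc9a3 are shown because the levels of Slc9a3 went opposite to those of the other 2 genes in a pair of the Si deplete kidneys, as described further on. Each runs from 250 bases before to 50 bases after the RefSeq start in assembly GRCr8, 5′ to 3′ on the gene's own strand, and capitals mark the GC box, searched as GGGCGG and its reverse complement CCGCCC. The windows are chr1:185861126-185861425 on the plus strand for Scnn1b, chr1:185735975-185736274 on the plus strand for Scnn1g and chr1:30995953-30996252 on the minus strand for Slc9a3.
Scnn1b: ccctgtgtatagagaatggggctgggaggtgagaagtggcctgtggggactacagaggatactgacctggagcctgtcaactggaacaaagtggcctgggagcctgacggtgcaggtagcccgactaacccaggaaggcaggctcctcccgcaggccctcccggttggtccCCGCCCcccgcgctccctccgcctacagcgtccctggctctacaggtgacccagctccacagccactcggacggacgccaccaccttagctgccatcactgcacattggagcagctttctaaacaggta
Scnn1g: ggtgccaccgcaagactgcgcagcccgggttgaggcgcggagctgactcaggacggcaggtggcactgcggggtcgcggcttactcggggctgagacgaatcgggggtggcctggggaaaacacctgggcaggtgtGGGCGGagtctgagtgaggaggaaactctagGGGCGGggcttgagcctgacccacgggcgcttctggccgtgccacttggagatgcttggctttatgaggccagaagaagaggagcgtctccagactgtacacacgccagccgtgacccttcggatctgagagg
Slc9a3: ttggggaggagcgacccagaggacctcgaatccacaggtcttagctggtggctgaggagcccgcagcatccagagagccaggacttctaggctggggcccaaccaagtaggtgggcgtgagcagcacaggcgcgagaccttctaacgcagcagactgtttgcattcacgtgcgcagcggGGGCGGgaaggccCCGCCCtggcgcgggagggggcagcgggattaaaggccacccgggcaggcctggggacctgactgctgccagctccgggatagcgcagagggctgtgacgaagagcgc

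Scnn1g and Scnn1b are neighbours on rat chromosome 1, with 0 protein-coding genes of the annotation between them. The RefSeq table holds 9 windows for 7 of the genes, as a gene can have several starts. A GC box was found in 4 of the 9 windows (those of Scnn1b, Scnn1g, Slc9a3 and Wnk4), while 33.1% of all 33469 windows of this length hold one. The half-site AGAACA or its reverse complement TGTTCT, which steroid hormone receptors such as the mineralocorticoid receptor can bind, was found in 3 of the 9 windows (of Kcnj1 and Slc12a1) and in 20.7% of all windows. Matches of these motifs did not overlap in the windows searched here. A match is a run of letters and not a measured binding site.

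Slc9a3, the proximal tubule exchanger, had log2 levels of 8.79, 9.54, 9.89 and 9.46 in the Si deplete kidneys, in order of their replicate numbers 1 to 4, and of 9.61, 9.59, 9.71 and 9.96 in the Si replete kidneys, an order kept for every gene. Of the 4 Si deplete kidneys, 3 lay below the lowest Si replete kidney, but replicate 3 was the second highest of all 8. The means were 9.42 ± 0.46 (SD, n = 4) and 9.72 ± 0.17 (SD, n = 4), a log2 change of -0.30 (standard error 0.21, 95% interval -0.77 to 0.17; limma, adjusted p = 0.531). This was the largest difference among the 11 probe sets and was smaller in size than the SD of the Si deplete kidneys. An exact permutation test of the difference between the diets gave a 2-sided p of 0.286. The difference depended on single kidneys. It was -0.09 without Si deplete replicate 1 and -0.45 without Si deplete replicate 3 (limma, adjusted p = 0.278).

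In the thick ascending limb, Slc12a1 had levels of 11.99, 11.99, 12.41 and 12.27 in the Si deplete kidneys and of 12.25, 12.12, 12.38 and 12.10 in the Si replete kidneys. The diets overlapped, with means of 12.17 ± 0.21 and 12.21 ± 0.13 (SD, n = 4 each). The log2 change was -0.05 (95% interval -0.32 to 0.22; limma, adjusted p = 0.881).

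Kcnj1, the potassium channel of the thick ascending limb and the collecting duct, stood at 10.32, 11.05, 11.15 and 10.85 in the Si deplete kidneys and at 10.63, 10.94, 11.01 and 10.73 in the Si replete kidneys. Both the lowest and the 2 highest kidneys were Si deplete. The means were 10.84 ± 0.37 and 10.83 ± 0.18 (SD, n = 4 each), and the log2 change of 0.01 (95% interval -0.39 to 0.41; limma, adjusted p = 0.981) became 0.19 without Si deplete replicate 1.

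In the distal convoluted tubule, Slc12a3 had levels of 10.76, 10.83, 10.65 and 10.44 in the Si deplete kidneys and of 10.67, 10.76, 10.89 and 10.46 in the Si replete kidneys. Its spread was alike in both diets, with means of 10.67 ± 0.17 and 10.70 ± 0.18 (SD, n = 4 each). The log2 change of -0.03 (95% interval -0.30 to 0.24; limma, adjusted p = 0.937) was within that spread.

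The 3 ENaC subunits did not vary alike from kidney to kidney. Scnn1a, the alpha subunit, had levels of 7.76, 7.87, 7.87 and 8.47 in the Si deplete kidneys and of 8.59, 8.37, 8.19 and 7.83 in the Si replete kidneys. All Si deplete kidneys but replicate 4 were near the lowest Si replete kidney. The log2 change was -0.25 (standard error 0.20, 95% interval -0.69 to 0.19; limma, adjusted p = 0.573; exact permutation test, 2-sided p = 0.343). Leaving out Si deplete replicate 4 made it -0.41, and leaving out Si replete replicate 1 made it -0.14. A second Scnn1a probe set, near the lower end of the scale, had levels of 2.85 to 3.81 with the Si deplete diet and of 3.38 to 3.70 with the Si replete diet, and a log2 change of -0.16 (95% interval -0.58 to 0.25; limma, adjusted p = 0.715), which ran from -0.33 without Si deplete replicate 4 to -0.01 without Si deplete replicate 1. Its deviations from the mean of each diet followed those of the brighter one (r = 0.79 over 8 arrays).

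Scnn1b, the beta subunit, stood at 8.10, 7.67, 7.32 and 7.57 in the Si deplete kidneys and at 7.67, 7.56, 7.76 and 7.58 in the Si replete kidneys. The highest and the lowest of the 8 kidneys were both Si deplete, and the Si replete kidneys lay close together. With means of 7.67 ± 0.33 and 7.64 ± 0.09 (SD, n = 4 each), the log2 change was 0.02 (95% interval -0.32 to 0.36; limma, adjusted p = 0.962).

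Scnn1g, the gamma subunit, had levels of 9.41, 8.84, 8.46 and 9.24 in the Si deplete kidneys and of 9.20, 9.02, 8.88 and 8.94 in the Si replete kidneys on its brighter probe set. On the other it had 6.15, 5.57, 4.90 and 6.26 against 5.89, 5.62, 5.76 and 5.62. On both, 2 Si deplete kidneys lay above and 2 below every Si replete kidney. The log2 changes were -0.02 (95% interval -0.46 to 0.41; limma, adjusted p = 0.969) and 0.00 (95% interval -0.60 to 0.60; limma, adjusted p = 0.999). The probe sets moved together from kidney to kidney (r = 0.94 over 8 arrays, centred on each diet), so the wide spread of Scnn1g among Si deplete kidneys was seen by both.

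Atp1b1, the beta-1 subunit of the sodium pump, had the smallest SDs of these genes. Its levels on the brighter probe set were 13.22, 13.21, 13.16 and 13.26 in the Si deplete kidneys and 13.16, 13.15, 13.12 and 13.08 in the Si replete kidneys. Of the Si deplete kidneys, 3 were above the highest Si replete kidney, and the means were 13.21 ± 0.04 and 13.13 ± 0.04 (SD, n = 4 each). The exact permutation test gave a 2-sided p of 0.0571, where 0.0286 is the smallest that 4 against 4 arrays allow. The log2 change of 0.08 (standard error 0.07, 95% interval -0.07 to 0.23; limma, adjusted p = 0.591) corresponds to 1.06-fold. With array medians subtracted the change was 0.02 (limma, adjusted p = 0.871). On the other probe set, with 13.02 to 13.07 in the Si deplete group and 12.89 to 13.07 in the Si replete group, the change was 0.06 (95% interval -0.10 to 0.22; limma, adjusted p = 0.742). Deviations from the mean of each diet correlated between the probe sets at only r = 0.43 over 8 arrays.

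**Figure D1:**
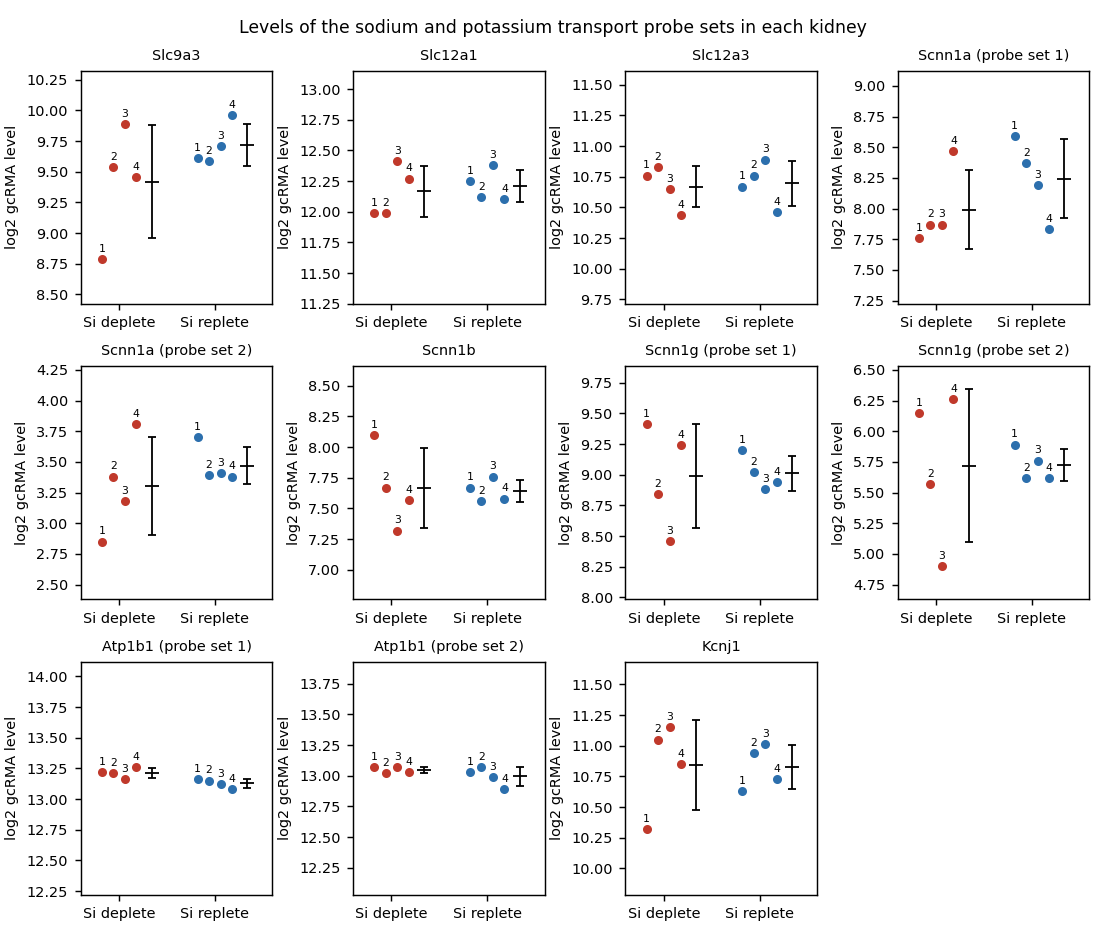
Log2 gcRMA level (vertical axis, the same span in every panel) of each probe set in the 4 Si deplete (red) and 4 Si replete (blue) kidneys; small digits are replicate numbers, and black marks show the mean and SD of each diet. The diets overlap in every panel, and the Si deplete points of Slc9a3, Scnn1b, Scnn1g and Kcnj1 lie farther apart than the Si replete points.

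**Figure D2:**
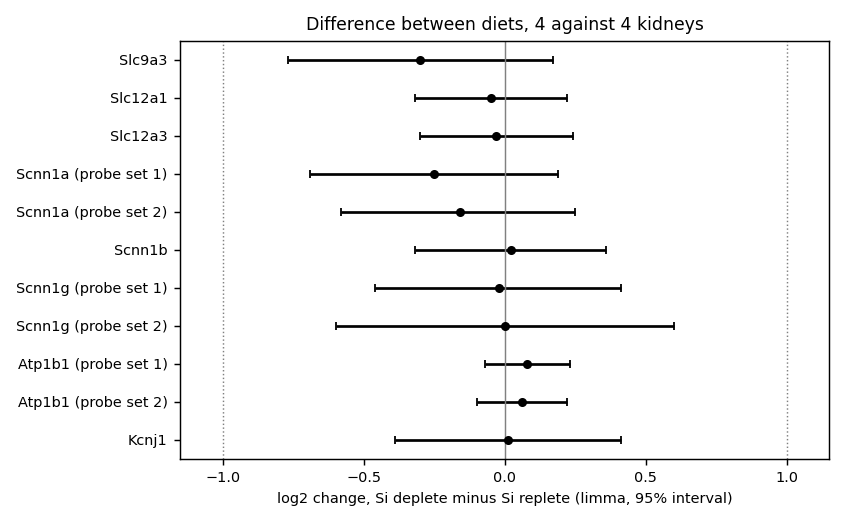
Log2 change, Si deplete minus Si replete, of each probe set (point) with its 95% interval from limma (bar); dotted lines mark a change of 2-fold. Every interval includes 0 and lies between -0.77 and 0.60.

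The spread between kidneys was larger in the Si deplete than in the Si replete group for 9 of the 11 probe sets (81.8%), as it was for 63.3% of all probe sets. The SD was more than 2 times larger for 6 of the 11, against 27.1% of all. These 6 were both probe sets of Scnn1g (3.01 and 4.76 times), Scnn1b (3.53 times), Slc9a3 (2.74 times), the lower Scnn1a probe set (2.64 times) and Kcnj1 (2.08 times). Slc12a3, at 0.937 times, and the second Atp1b1 probe set, at 0.372 times, had the smaller SD in Si deplete kidneys. Without Si deplete replicate 1 the count was again 9 of 11, with 53.2% of all probe sets, and without Si deplete replicate 3 it was 9 of 11, with 60.2%. The 11 probe sets share kidneys, and some share a gene, so these counts are a description with no test. The median standard error of the difference was 0.177 for the 11 probe sets and 0.111 for all probe sets. Of all probe sets, 51.3% had a mean level under 4, but among the 11 only the lower Scnn1a probe set did. These shares and medians therefore do not compare probe sets of like level.

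Si deplete replicates 1 and 3 lay at opposite ends. Replicate 1 had the lowest levels of all 8 kidneys for Slc9a3 (0.63 below the mean of its diet on the log2 scale) and Kcnj1 (0.52 below) and the highest for Scnn1b (0.44 above) and for the brighter Scnn1g probe set (0.42 above). Replicate 3 had the lowest for Scnn1b (0.35 below) and Scnn1g (0.52 below), the highest for Slc12a1 (0.25 above) and Kcnj1 (0.31 above), and was 0.47 above the mean for Slc9a3. The beta and gamma subunits of ENaC were therefore high in the kidney where the exchanger and the potassium channel were low, and the reverse. Scnn1a did not share this pattern: its highest Si deplete kidney was replicate 4, at 0.48 above the mean of the diet. Scnn1g was high in replicate 4 too, at 0.25 above on its brighter probe set and 0.54 above on the other. On that other probe set, replicate 4 and not replicate 1 was the highest of all 8 kidneys.

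Values that moved with these 2 kidneys were looked for among listed markers of nephron segments and injury. The lists were chosen with earlier results of these data known. Replicate 1 had the lowest mean level of 8 proximal tubule markers (11.09, against 11.48 to 11.92 in the other 7 kidneys) and the highest of 10 tubule injury markers (11.25). Replicate 3 was at 11.79 for the proximal tubule markers and 9.84 for the injury markers, the lowest injury value among the Si deplete kidneys. The mean of 6 principal cell markers was 10.20 in replicate 1 and 10.04 in replicate 3, against 10.14 to 10.52 in the Si replete kidneys, and Si deplete replicate 2 had the lowest value, 9.97. The part of these differences in the levels of Slc9a3, Kcnj1, Scnn1b and Scnn1g was not tested.

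**Figure D3:**
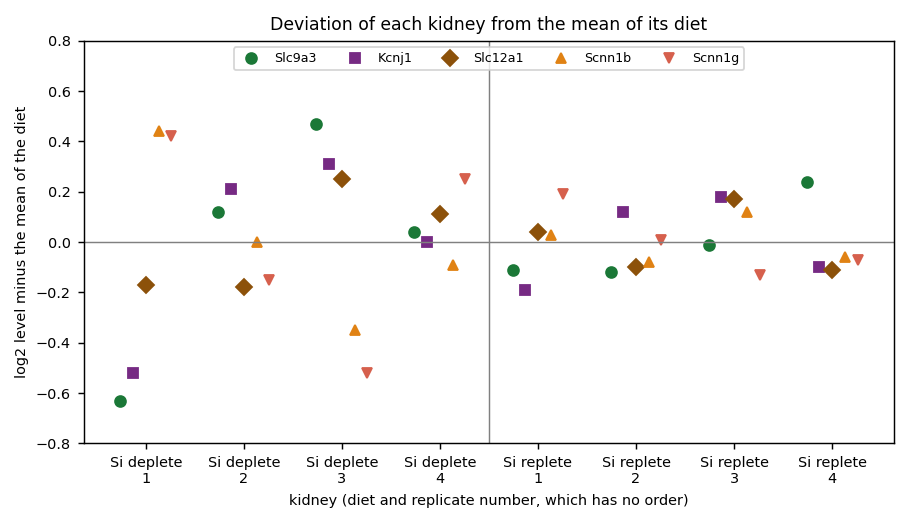
Log2 level of Slc9a3, Kcnj1, Slc12a1, Scnn1b and Scnn1g (brightest probe set) minus the mean of the kidney's diet (vertical axis) in each of the 8 kidneys (horizontal axis, without order). Slc9a3 and Kcnj1 are low and Scnn1b and Scnn1g high in Si deplete replicate 1, the reverse holds in Si deplete replicate 3, and all Si replete points of these 5 genes lie within 0.24 of 0.

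Over all 8 kidneys, the levels of 28 pairs of these genes were correlated after the mean of each diet was subtracted, with exact permutation within diets over 576 arrangements. No pair held after Benjamini-Hochberg adjustment (smallest adjusted p = 0.33 for Pearson's r and 0.389 for Spearman's rho). The strongest were Slc9a3 with Scnn1b (r = -0.90, permutation p = 0.059; rho = -0.62, permutation p = 0.156), Slc9a3 with Scnn1g (r = -0.85, permutation p = 0.0382; rho = -0.74, permutation p = 0.0417) and Scnn1g with Kcnj1 (r = -0.85, permutation p = 0.0399; rho = -0.88, permutation p = 0.0278). Without Si deplete replicates 1 and 3, the kidneys farthest from the median of the first gene, r was -0.08 for Slc9a3 with Scnn1b, which rests on those kidneys, -0.49 for Slc9a3 with Scnn1g and -0.74 for Scnn1g with Kcnj1. Scnn1a with Atp1b1 had r = 0.82 (permutation p = 0.0347; rho = 0.71, permutation p = 0.0972), or 0.61 without the 2 farthest kidneys. The brighter Atp1b1 probe set, used here, stayed within 0.05 of the mean of each diet, and its correlation with the other Atp1b1 probe set was only 0.43. The 2 ENaC subunits that neighbour each other on chromosome 1, Scnn1b and Scnn1g, had r = 0.74 (permutation p = 0.181; rho = 0.36, permutation p = 0.462), or -0.40 without Si deplete replicates 1 and 3.

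The gene most like each member across the 8 kidneys, by the same centred correlation among 9121 probe sets with 1 symbol and a mean level of 6 or more, was Tnfrsf21 for Slc9a3 (r = 0.985), Trps1 for Slc12a1 (0.991), Slain2 for Slc12a3 (0.996), Enpp3 for Scnn1a (0.971), Shfl for Scnn1b (0.985), Tomm7 for Scnn1g (0.982), Tpm2 for Atp1b1 (0.963) and Fam81a for Kcnj1 (0.980). Each is the highest of many values over few kidneys: between 12 genes, for Slc12a3, and 199, for Scnn1b, had an r over 0.9. No member was the most alike of another member by construction, since members were left out of the search.

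Other genes of sodium and potassium transport were taken from 6 lists of 70 genes in all, members included, of which 59 were measured by a probe set of their own, on the brightest one. None passed (29 of 14217 named genes, 0.204%, did). At an unadjusted p under 0.05, 4 were higher and 3 lower in Si deplete kidneys, or 11.9% of the 59, against 18.5% of all named genes. The median log2 change over the 59 was -0.04, and the smallest adjusted p was 0.209.

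Among the 8 measured genes of the list named for proximal sodium entry and its scaffolds (median change -0.12), Slc9a2, a relative of NHE3, had the smallest p. Whole-kidney levels do not show in which segment Slc9a2 was expressed. It had levels of 3.94, 4.67, 4.97 and 4.64 in Si deplete and 5.50, 5.29, 5.17 and 4.91 in Si replete kidneys, a log2 change of -0.66 (standard error 0.21; limma, adjusted p = 0.227). The scaffold proteins that hold NHE3 at the brush border had changes of -0.24 (Pdzk1, adjusted p = 0.49 in limma), -0.11 (Nherf1) and -0.13 (Nherf2) on their brightest probe sets. Without Si deplete replicate 1 these became -0.08, -0.06 and 0.05. A dimmer probe set had a change of -0.38 for Nherf1 (limma, adjusted p = 0.357) and of -0.20 for Nherf2 (limma, adjusted p = 0.769).

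Of 7 measured thick ascending limb genes (median -0.05), Cldn19, a tight junction protein for magnesium and calcium passage, had levels of 11.06, 9.65, 9.71 and 9.94 in Si deplete and 9.61, 9.01, 9.18 and 8.71 in Si replete kidneys. The lowest Si deplete kidney was above the highest Si replete one, as in 9.37% of all probe sets with either direction counted (log2 change 0.96, standard error 0.31; limma, adjusted p = 0.232; exact permutation test, 2-sided p = 0.0286). Without Si deplete replicate 1 the change was 0.64. The other named genes of the segment had smaller changes, of -0.14 for Cldn10, -0.17 for Bsnd and -0.08 for Umod, which encodes uromodulin.

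The kinase Stk39 (SPAK), which phosphorylates NCC and NKCC2, had levels of 8.78, 8.64, 9.0 and 8.91 in Si deplete and 9.20, 9.23, 9.15 and 9.04 in Si replete kidneys. The diets did not overlap, as in 9.37% of all probe sets (log2 change -0.32, standard error 0.10; limma, adjusted p = 0.214), but a second Stk39 probe set differed by only -0.02. Oxsr1, its close relative, had a change of 0.16, and Wnk1, a kinase upstream of both, one of -0.25, or -0.10 without Si deplete replicate 1. A second Wnk1 probe set had a change of -0.49 (limma, adjusted p = 0.466). Its other probe sets, near the lower end of the scale, had changes of 0.02, 0.04 and 0.07. Cul3, part of the ubiquitin ligase that degrades WNK kinases, had levels of 10.95 to 11.01 against 11.05 to 11.14 on its brightest probe set, with no overlap (as in 9.37% of all probe sets) and a change of -0.12 (limma, adjusted p = 0.439). On its other probe sets the diets overlapped, with changes of -0.10 and, near the lower end of the scale, 0.11. Among the 11 measured genes of this list the median was -0.07, and 4 (Wnk2, Klhl3, Kcnj10 and Pvalb) had a mean level under 4.

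Nr3c2, the mineralocorticoid receptor through which aldosterone acts on ENaC, stood at 8.57, 8.23, 8.89 and 8.76 in Si deplete and at 8.85, 9.05, 9.21 and 9.17 in Si replete kidneys. Of the Si deplete kidneys, only replicate 3 reached the lowest Si replete kidney (log2 change -0.46, standard error 0.15; limma, adjusted p = 0.228). Other regulators of the channel differed by -0.51 (Usp2, a deubiquitinase; adjusted p = 0.399 in limma), -0.29 (Prss8, a protease that activates the channel; adjusted p = 0.415) and -0.27 (Tsc22d3, which encodes the aldosterone-induced GILZ; adjusted p = 0.379). Without Si deplete replicate 1 these became -0.32, -0.13 and -0.15. A second Usp2 probe set had a change of -0.47 (limma, adjusted p = 0.457). The median over the 12 measured genes of ENaC and its regulators was -0.02.

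Fxyd5, a regulatory subunit of the sodium pump, had the smallest p of all 59 genes. Its levels were 8.62, 8.20, 7.62 and 8.27 in Si deplete and 7.47, 7.31, 6.57 and 7.70 in Si replete kidneys, a log2 change of 0.92 (standard error 0.27; limma, adjusted p = 0.209), and 3 of the 4 Si deplete kidneys were above all Si replete ones. Fxyd2, the gamma subunit of the tubular pump, had a change of -0.14 and Atp1b3 one of 0.10. Atp4a, a catalytic subunit of the gastric proton-potassium pump, was near the lower end of the scale, at 1.90 to 2.08 against 2.07 to 2.32 (change -0.19; limma, adjusted p = 0.338). Over 9 measured pump genes the median was 0.09, and their mean level was 7.94 to 8.07 with the Si deplete diet and 7.84 to 7.93 with the Si replete diet.

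Of 13 measured potassium channels and cotransporters (median 0.05), the potassium-chloride cotransporters Slc12a7 and Slc12a4 had changes of 0.39 (limma, adjusted p = 0.244) and 0.57 (limma, adjusted p = 0.289). Slc12a7 had levels of 9.07, 9.38, 9.18 and 8.99 against 8.99, 8.72, 8.47 and 8.88. Its second probe set, near the lower end of the scale, went the other way with -0.18. There the diets did not overlap, at 1.66 to 1.73 against 1.85 to 1.90 (as in 9.37% of all probe sets). Kcnk5, a potassium channel of the proximal tubule, had a change of 0.44 and Kcne1, a channel subunit, one of -0.39.

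**Figure D4:**
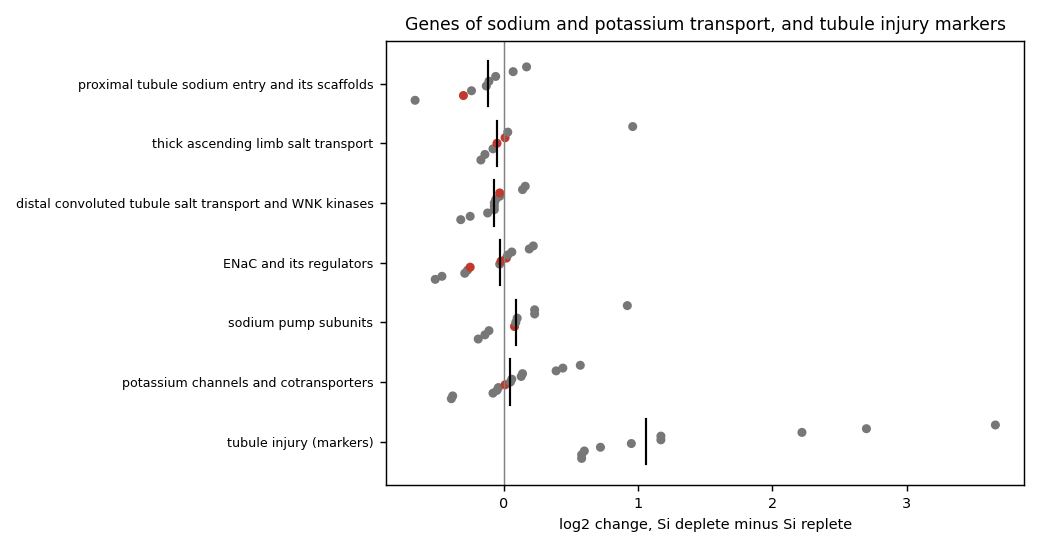
Log2 change, Si deplete minus Si replete (horizontal axis), of each measured gene of the 6 transport lists and of the tubule injury markers; red points are the members, grey points other genes, and black lines the median of each list. The transport medians lie between -0.12 and 0.09, and the injury markers have a median of 1.06.

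Kidney markers were present. Uromodulin for the thick ascending limb had levels of 13.24 to 13.58, and the principal cell list had mean levels of 9.97 to 10.52. Of 3 measured markers of the distal convoluted tubule, Calb1 had levels of 11.50 to 12.02 and Cnnm2 of 6.56 to 7.24. The other, Pvalb, was near the lower end of the scale. Beside the transport genes, all 10 tubule injury markers had a higher mean in Si deplete kidneys, as had 7115 of 14217 named genes. Of the 10, 9 had an unadjusted p under 0.05 in limma (18.5% of all named genes did) and none was called (0.204% were). Their mean level was 9.84 to 11.25 against 8.65 to 9.54. This list, too, was chosen with earlier results of these data known. Median changes were -0.13 for proximal tubule, -0.08 for thick ascending limb, -0.24 for distal convoluted tubule, -0.16 for principal cell, -0.14 for intercalated cell, -0.57 for podocyte, -0.01 for endothelium, 0.22 for fibroblast and mural, 0.62 for macrophage and lymphocyte markers and -0.86 for 2 blood genes. On the first principal component, which held 42.1% of the variance, the Si deplete kidneys lay at -1.94 to 64.0, with replicate 1 highest, and the Si replete kidneys at -25.9 to -18.8. As a sign of RNA quality, the 3′ minus 5′ difference of the hexokinase control was 3.32 to 3.52 in the Si deplete group and 2.88 to 3.34 in the Si replete group, and that of GAPDH 0.58 to 0.66 and 0.62 to 0.64. Their part in the transport values was not tested.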

How the data were processed

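RNA of whole left kidneys was hybridized to 8 Affymetrix rat genome arrays, 4 for each diet. The values the authors deposited are log2 levels of 31099 probe sets, computed by gcRMA with m-estimator summarization (GCRMA 2.36.0 in the submitters' processing notes). The sources used here name no filter before deposit. Probe intensities were not analysed here.

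After 57 controls were left out, the diets were compared in limma (version 3.58.1, under R 4.3.3; lmFit, then eBayes), always Si deplete minus Si replete and with no filter on level. P-values were adjusted by Benjamini-Hochberg over all 31042 probe sets, with 0.1 as the threshold. Single probe sets were also compared by exact permutation over 70 arrangements. Each array holds a different rat; the number of arrays limits the precision. On simulated arrays for this comparison with 200 of 31042 probe sets changed, 21 of 217 calls were false, and 97% of changes of 1 and 99% of changes of 2 on the log2 scale were recovered. That holds for the simulation alone: in the real arrays Havcr1 was not called at a change of 3.66 (adjusted p = 0.134 in limma).

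The members and lists were chosen with earlier results of these data known. The text names all members, from each list up to 4 further genes with the smallest p, and the gene most like each member. Of 70 list genes, 2 (Slc9a3r1 and Slc9a3r2) were found under the newer symbols Nherf1 and Nherf2. Gene symbols come from the platform annotation and promoter sequences from RefSeq (GRCr8). The test was repeated with array weights, with an intensity trend or a robust prior, without probe sets of mean under 4, after median subtraction or quantile normalization, with the replicate number as a block, without each array in turn, at 0.05, with Storey's q-value (lambda set to 0.5) and on the mean level over the probe sets of a gene. Alternatives for the correlations and for the SDs were chosen after seeing the data.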

Additional observations from a re-analysis of the deposited data

Results flagged for a closer look

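In 70 groups of 4 kidneys (35 probe sets by 2 diets), 2 single values stood apart from the other 3 of their diet, where chance alone would set apart about 1 group in 20. On the brighter Scnn1a probe set, Si deplete replicate 4 had a level of 8.47 while the other 3 lay at 7.76 to 7.87 (gap over range 0.838). On the lower Scnn1a probe set, Si replete replicate 1 had a level of 3.70 while the other 3 lay at 3.38 to 3.41 (gap over range 0.915).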

How the results depend on the processing

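No probe set of the members passed under any alternative; their smallest adjusted p lay between 0.267 and 0.629. The count over all probe sets, 47, was 77 without probe sets of mean under 4, 104 with the replicate number as a block, 0 at an adjusted p of 0.05 (4638 at an unadjusted p under 0.05), 172 with Storey's q-value and 0 to 302 when each array was left out. Of the transport list genes, 1 passed, with the replicate block only: Fxyd5 (log2 change 0.92, adjusted p = 0.0954). The rats were killed in sets holding 1 of each diet, but no source used here ties the replicate numbers to those days, so the numbers were not taken as a pairing. Same-numbered deviations correlated at -0.08798 to 0.09043, and 4 of 8 arrays were closest to their own number, so a weak pairing cannot be told from none. Differences of members near 0 changed sign: with quantile normalization Slc12a1 was 0.00331, Slc12a3 0.01 and the lower Scnn1g probe set -0.04; with array weights Scnn1b was -0.05 and that Scnn1g probe set -0.08; with array medians subtracted Scnn1b was -0.03, that Scnn1g probe set -0.05, the second Atp1b1 probe set -0.00057 and Kcnj1 -0.04; and the mean of both Scnn1g probe sets was -0.01. With each array left out the changes ranged from -0.13 to 0.01 for Slc12a1, from -0.11 to 0.05 for Slc12a3, from -0.12 to 0.14 for Scnn1b, from -0.16 to 0.15 and -0.18 to 0.28 for Scnn1g, from -0.09 to 0.19 for Kcnj1 and from -0.25 to 0.05 for Nherf2. In all, 28 of 192 values of members changed sign and 164 did not; of 414 values of other named list genes, 412 kept their direction and side of the threshold. The correlation of Slc9a3 with Scnn1b was -0.94 with array medians subtracted (permutation p = 0.0365) and -0.64 without Si deplete replicate 1 (permutation p = 0.25). Probe sets near the lower end of the scale, among them the second Scnn1a probe set, carry little signal over background.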
